A study of Homo sapiens with 12 samples.

Results

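Messenger RNA levels of 50 human genes of DNA replication and S phase were examined in A375 cells, a melanoma cell line, after knockdown of the m6A demethylase ALKBH5. The genes were taken by name from a list that covers origin licensing, helicase activation, the polymerases, the sliding clamp, Okazaki fragment joining, nucleotide supply, fork protection, chromatin copying and cyclin E. All 50 were found among the 29696 genes of the expression table, and for 49 of them the mean level over the 6 input libraries was 0.5 FPKM or more, the limit set for testing (FPKM is a read level scaled by transcript length and library size). The remaining gene was CCNE2.

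Lentiviral shRNA cells labelled shALKBH5 (genotype ALKBH5 knockdown) were set against shCtrl cells (genotype wild type), which the study's text calls Scramble. Each group gave 3 input RNA libraries and 3 libraries of RNA precipitated with an antibody against m6A, a methyl mark on adenosine that ALKBH5 removes. Which of the ALKBH5 hairpins the sequenced cells carried is not named, and although the study selected its stable lines with puromycin, it is unclear whether these cells were selected. The harvest time in the study's RNA-Seq methods falls before that selection would have ended, but those methods name another sequencer than these libraries' labels, so that this time may not apply here. The study's text says in general that experiments were repeated independently, but the labels do not say whether these libraries came from separate cultures. If they did not, p-values measure the spread between libraries, which may be technical. ALKBH5 itself was at 3.39, 3.92 and 3.12 FPKM in the shALKBH5 input libraries and at 19.3, 17.8 and 17.6 FPKM in the shCtrl input libraries.

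Before S phase, the origin recognition complex, CDC6 and CDT1 load the ring of MCM2 to MCM7 onto DNA, which licenses an origin. In S phase, CDC45 and the GINS complex join the ring to form the active helicase, and primase, polymerases and the PCNA clamp copy both strands behind it. Many of these genes are transcribed under E2F factors and peak around the start of S phase. In bulk RNA, fewer cells in S phase and less RNA per cell cannot be told apart.

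E2F factors bind words such as TTTCCCGC and TTTGGCGC, so the promoters were searched for them. RefSeq promoter windows on GRCh38.p14, from 250 bases before to 50 after a start site, were matched by symbol for 43 of the 50 genes (58 windows). The words TTTCCCGC, TTTGGCGC, TTTCGCGC and TTTGCCGC were searched on both strands. For each role with a match, the stretch below comes from the gene with the largest fitted fall that held one. The match nearest the start site is shown. No match was found for the cyclin E genes, so that role has no stretch. GINS3 was added because it moved the other way. Each stretch is written 5′ to 3′ on the strand that carries the word, and the capitals mark the word.

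MCM6 (chr2:135876511-135876540, plus strand): ggagctggagaTTTCGCGCcaaacctgacc
GINS2 (chr16:85688967-85688996, plus strand): gcggccgccgtTTTCCCGCcacggcgagag
POLE (chr12:132687342-132687371, plus strand): caggggagaaaTTTGGCGCgctcccaccca
RFC3 (chr13:33818083-33818112, minus strand): cagagacaagtTTTCCCGCgagctccaaat
LIG1 (chr19:48170440-48170469, minus strand): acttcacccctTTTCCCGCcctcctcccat
TYMS (chr18:657603-657632, minus strand): tccgcgcgcctTTTCCCGCggccgtcccgc
CLSPN (chr1:35769965-35769994, plus strand): gctgttcttgcTTTCCCGCccagccagagt
UHRF1 (chr19:4909476-4909505, minus strand): gctctgattttTTTCCCGCgaaaactcggc
GINS3 (chr16:58392455-58392484, minus strand): attgaaactcgTTTCCCGCgcccggggacg

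At least 1 of the words stood in 24 of the 58 windows (41.4%), against 21.7% of the windows of a second list of other replication genes and 5.08% of the 13301 windows of tested genes. By gene, 23 of the 43 replication genes with a window held a match, against 6.88% of the tested genes with one. TTTCCCGC was in 12 of their windows, TTTGGCGC in 9 and TTTCGCGC in 7, and TTTGCCGC in 0. Some windows held several words, and TTTCGCGC on a strand can overlap TTTGGCGC on the other, as in MCM6. The genes with a match had a median log2 fold change of -1.21 (23 genes) and those with a window but no match one of -1.06 (20 genes). CDC45 and TK1, which fell strongly, held no match in these windows, and GINS3, which rose, held TTTCCCGC. A match is a description of letters and not of a bound site.

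**Figure D1:**
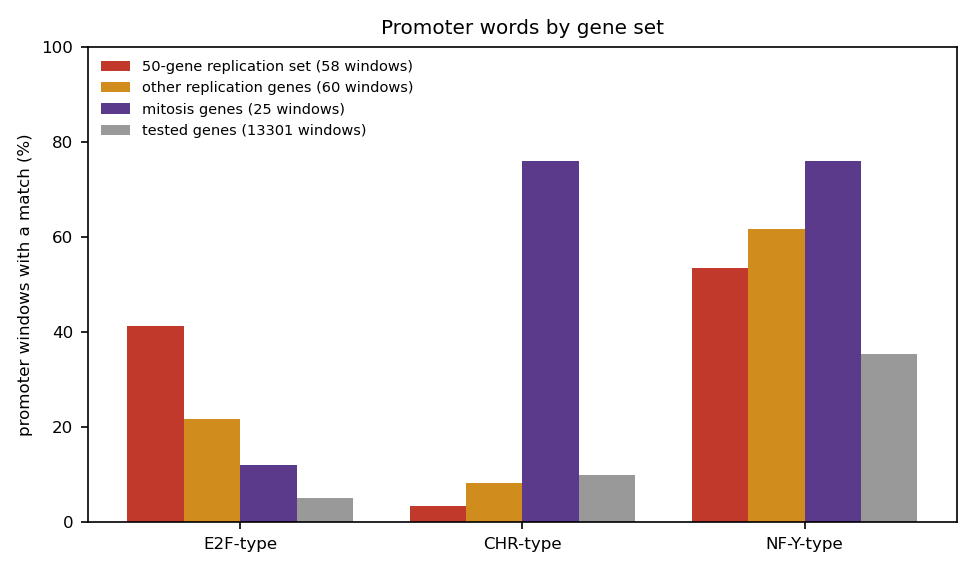
Share of RefSeq promoter windows (y axis, percent) that hold an E2F-type word, a CHR-type word (TTTGAA) or an NF-Y-type word (CCAAT), for the 50 genes, other replication genes, mitosis genes and all tested genes; bars are shares of windows. E2F-type words were in 41.4% of the windows of the 50 genes, 21.7% of those of other replication genes and 12.0% of those of mitosis genes. CHR-type words were in 3.45% of the windows of the 50 genes and 76.0% of those of mitosis genes.

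The CHR word TTTGAA, known from promoters of mitotic genes, was in 3.45% of the windows of the 50 genes, 76.0% of the 25 windows of mitosis genes and 10.0% of those of tested genes. CCAAT, the word bound by NF-Y, was in 53.4% of the windows of the 50 genes, 76.0% of those of mitosis genes and 35.3% of those of tested genes. Windows of the same gene can overlap each other.

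The replication genes fell together in shALKBH5 cells. Of the 49 tested, 48 were lower and 1, GINS3, was higher (limma on log2(FPKM + 0.1), Benjamini-Hochberg adjusted p under 0.05 over 12985 genes). Over all tested genes 26.2% were called lower and 34.7% higher. Log2 fold changes below -1 were found for 29 of the 49 genes, against 6.29% of all tested genes, and changes below -2 for 2 of the 49, CDC45 and UHRF1, against 0.970%. Fold changes are on the log2(FPKM + 0.1) scale, which understates the change of low genes, and with a pseudocount of 1 the fall was below -1 for 21 genes. The median log2 fold change was -1.19 over the 49 genes and 0.09 over all tested genes.

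The groups did not overlap for any tested gene of the list. All 3 shALKBH5 libraries lay below all 3 shCtrl libraries in 48 genes, against 29.0% of all tested genes, and above them in 1 gene, against 38.0%. CCNE2, which was not tested, was also below in every library.

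**Figure D2:**
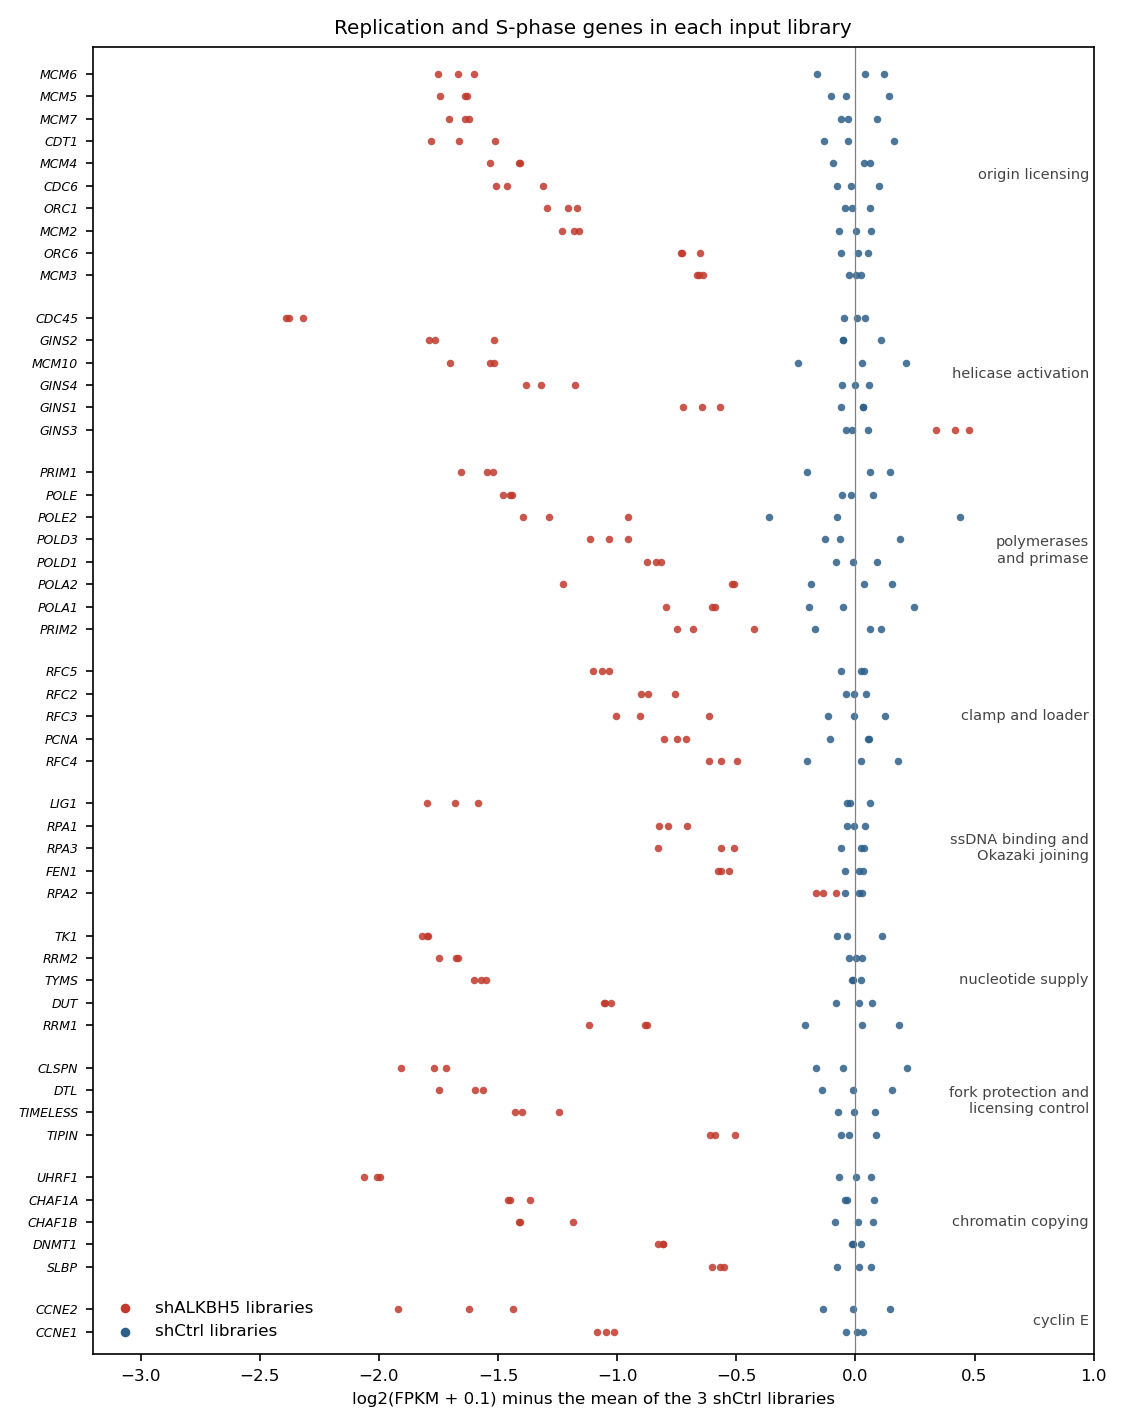
Level of each of the 50 genes in each input library, as log2(FPKM + 0.1) minus the mean of the 3 shCtrl libraries (x axis), with genes grouped by role (y axis); each point is a library, red for shALKBH5 and blue for shCtrl. Red points lie left of all blue points for every gene but GINS3, where they lie right of them.

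The 10 origin licensing genes all fell, with a median log2 fold change of -1.44. MCM6, a subunit of the helicase ring, had the largest fitted fall, but MCM5, MCM7 and CDT1 lay within its standard error. Another of these 4 genes took its place in 5 of 13 alternative fits, MCM7 with a pseudocount of 1 (-1.62 against -1.44), and CDT1, MCM7 or MCM5 when 1 library was left out. MCM6 was at 3.19, 3.35 and 3.01 FPKM in shALKBH5 and at 9.27, 11.3 and 10.7 FPKM in shCtrl cells, and its level was 3.27-fold lower (log2 fold change -1.67, standard error 0.0847, adjusted p = 4.40e-06, limma). MCM3, another subunit of the same ring, had the smallest fitted fall, although with a pseudocount of 1 ORC6 had it (-0.54 against -0.64). MCM3 was at 23.3, 23.8 and 23.5 FPKM against 37.2, 37.8 and 36.4 FPKM (log2 fold change -0.65, standard error 0.0362, adjusted p = 6.75e-06, limma). The separation between groups was complete for both, and the spread within each group was small beside it.

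The loaders of the ring fell too. CDC6, the ATPase that loads MCM rings with the origin recognition complex, was at 3.54, 4.07 and 3.66 FPKM in shALKBH5 and at 9.70, 11.0 and 10.1 FPKM in shCtrl cells. CDT1, which carries the ring to the origin, was at 5.64, 4.67 and 5.07 FPKM against 18.2, 15.9 and 14.9 FPKM. Their log2 fold changes were -1.43 and -1.65. The ratio of CDC6 to CDT1 did not separate the groups: its log2 was -0.44 ± 0.231 in shALKBH5 and -0.66 ± 0.208 in shCtrl cells (SD, n = 3, exact permutation test, two-sided, p = 0.4).

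Of the origin recognition complex, ORC1, the subunit whose level is known to move through the cell cycle, was at 4.45, 4.86 and 4.73 FPKM in shALKBH5 and at 10.7, 10.9 and 11.5 FPKM in shCtrl cells. ORC2, a core subunit that is not among the 50 genes, was at 1.83, 2.02 and 1.68 FPKM against 2.00, 2.25 and 2.18 FPKM, and these ranges overlapped. ORC1 to ORC2 ratios were therefore 2.41 to 2.81 in shALKBH5 and 4.87 to 5.36 in shCtrl libraries. The difference in log2 ratio was -1.02 (two-sided exact permutation p = 0.1). With 3 libraries in each group this test cannot give a smaller p. ORC6, a further subunit, fell by 0.70 on the log2 scale.

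The 6 subunits of the MCM ring, which the complex holds in equal numbers, had log2 fold changes from -0.65 to -1.67. MCM7 had the highest and MCM6 the lowest FPKM of the 6 in every library. MCM7 was at 27.3, 26.1 and 27.6 FPKM in shALKBH5 and at 90.7, 81.7 and 83.5 FPKM in shCtrl cells. MCM3 was 0.851 to 0.912 times the level of MCM7 in shALKBH5 libraries and 0.410 to 0.462 times in shCtrl libraries, and 1.34 to 1.43 against 0.907 to 1.01 times the level of MCM2. These MCM ratios were chosen after their values were seen and are given without a test. MCM2, MCM4 and MCM5 had log2 fold changes of -1.19, -1.45 and -1.67.

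**Figure D3:**
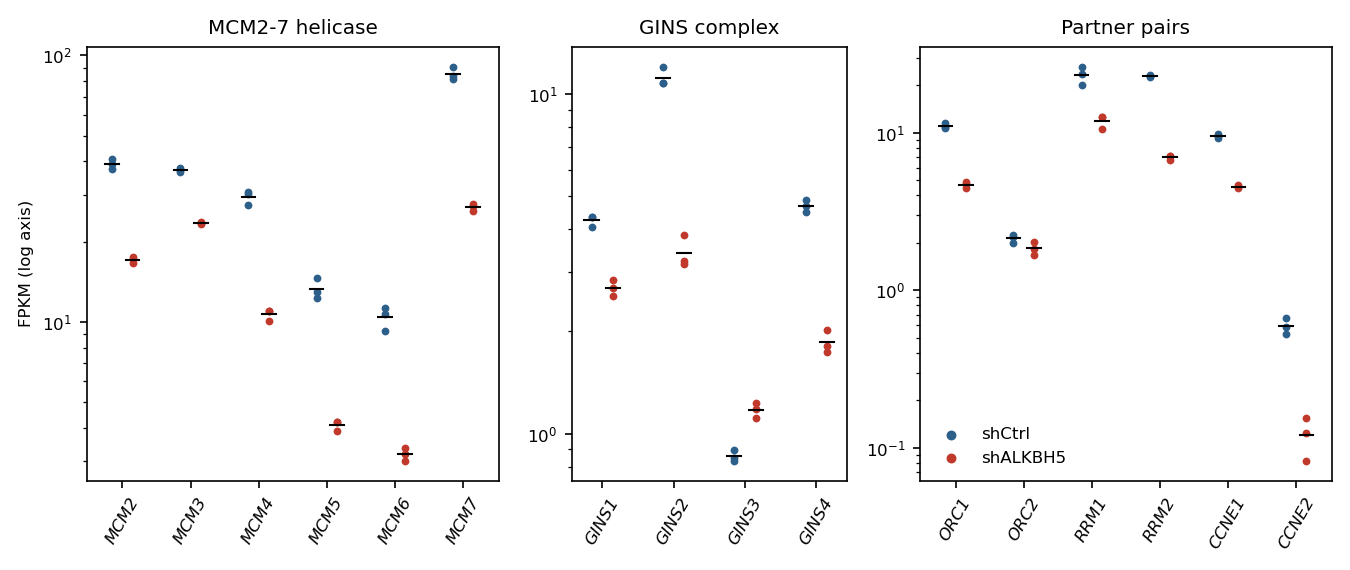
FPKM (log axis) of the MCM2 to MCM7 subunits, the GINS subunits and 3 partner pairs in each input library; points are libraries, blue for shCtrl and red for shALKBH5, and black bars are group means of 3. MCM3 lies closer between groups than the other MCM genes, GINS3 alone is higher in red, and ORC2 overlaps between groups.

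Among the 6 genes of helicase activation, 5 fell and 1 rose. CDC45, the protein that turns the loaded ring into a moving helicase, had the largest fall of all 50 genes. It was at 1.86, 1.78 and 1.76 FPKM in shALKBH5 and at 9.93, 9.33 and 9.70 FPKM in shCtrl cells, 5.37-fold lower (log2 fold change -2.36, standard error 0.0595, adjusted p = 3.18e-07, limma). MCM10, which acts at helicase activation, fell from 2.84 ± 0.454 to 0.874 ± 0.0682 FPKM (SD, n = 3). On the log2 scale this was -1.58, or -1.03 with a pseudocount of 1.

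GINS is a complex of 4 subunits, and its RNAs moved in opposite directions. GINS3 was at 1.23, 1.18 and 1.11 FPKM in shALKBH5 and at 0.850, 0.896 and 0.832 FPKM in shCtrl cells (log2 fold change 0.41, standard error 0.109, adjusted p = 0.0132, limma). All shALKBH5 libraries were the higher ones. GINS1, GINS2 and GINS4 had log2 fold changes of -0.65, -1.69 and -1.29. The ratio of GINS2 to GINS3, chosen after its values were seen, was 2.68 to 3.12 in shALKBH5 and 12.0 to 14.2 in shCtrl libraries. The rise of GINS3 rested on low levels, and without shALKBH5 replicate 1 its adjusted p was 0.0560 (log2 fold change 0.38, limma). With a pseudocount of 1 its log2 fold change was 0.23. The deposited span of GINS3 is 111068 bp, 8.12 times its RefSeq span of 13677 bp, and AC009118 on the other strand overlaps it by 655 bp and was at 0.589 and 0.232 FPKM in shALKBH5 and shCtrl cells. The part of either in the GINS3 value was not tested.

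The 8 genes of DNA polymerases and primase all fell, with a median log2 fold change of -0.94. PRIM1, the catalytic subunit of primase, fell most. It was at 1.28, 1.25 and 1.15 FPKM in shALKBH5 and at 3.33, 4.27 and 4.02 FPKM in shCtrl cells (log2 fold change -1.57, standard error 0.108, adjusted p = 1.79e-05, limma). PRIM2, the other primase subunit, had the smallest fitted fall, although POLA1 or POLA2 took its place in 4 fits that left out a library. It was at 1.26, 1.60 and 1.32 FPKM against 1.93, 2.28 and 2.36 FPKM (log2 fold change -0.62, standard error 0.123, adjusted p = 0.00362, limma). Neither primase gene overlapped between groups. NACA, at 26.8 and 24.1 FPKM, overlaps PRIM1 by 333 bp on the same strand.

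POLE and POLE2, subunits of the leading-strand polymerase epsilon, had log2 fold changes of -1.46 and -1.21, and POLD1 and POLD3, subunits of the lagging-strand polymerase delta, -0.84 and -1.04. POLA1 and POLA2, of the polymerase that extends primers, had log2 fold changes of -0.66 and -0.75. POLA2 was uneven within shALKBH5 cells, at 4.08, 4.06 and 2.45 FPKM, against 6.52, 5.14 and 6.01 FPKM in shCtrl cells. Over 43662 bp it shares its span and strand with a gene listed as AP000944, whose log2 fold change was -0.72. POLE2 had the lowest mean of the tested genes over all 6 libraries, 0.761 FPKM (0.412 FPKM in shALKBH5 and 1.11 FPKM in shCtrl cells). With a pseudocount of 1 the log2 fold changes of POLE2 and POLA1 were -0.57 and -0.43.

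All 5 genes of the sliding clamp and its loader fell, with a median log2 fold change of -0.84. PCNA, the clamp that holds polymerases on DNA, was at 36.0, 38.4 and 37.4 FPKM in shALKBH5 and at 58.5, 65.5 and 65.3 FPKM in shCtrl cells, and its log2 fold change was -0.76. RFC5, of the loader, fell most, at 4.02, 3.94 and 3.84 FPKM against 8.01, 8.48 and 8.57 FPKM (log2 fold change -1.07, standard error 0.0554, adjusted p = 4.97e-06, limma). RFC4 fell least, at 2.10, 2.29 and 2.18 FPKM against 2.83, 3.32 and 3.71 FPKM (log2 fold change -0.56, standard error 0.107, adjusted p = 0.00293, limma). RFC2 and RFC3 both had log2 fold changes of -0.84.

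The 5 genes that coat single strands and join Okazaki fragments had the smallest median of the roles with several tested genes in size, -0.63. LIG1, the ligase that seals Okazaki fragments, was at 2.76, 2.37 and 2.57 FPKM in shALKBH5 and at 8.83, 8.32 and 8.26 FPKM in shCtrl cells (log2 fold change -1.69, standard error 0.0727, adjusted p = 2.18e-06, limma). FEN1, the nuclease that trims the flaps before LIG1 acts, went from 83.9 ± 2.32 to 57.0 ± 0.908 FPKM (SD, n = 3, log2 fold change -0.56). RPA2, of the single-strand binding trimer, moved least of all 50 genes, at 24.8, 23.9 and 23.4 FPKM against 26.8, 25.5 and 26.6 FPKM (log2 fold change -0.13, standard error 0.0428, adjusted p = 0.0327, limma).

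The RPA2 groups were separate by a narrow margin, and its call was lost under 6 of 13 alternative fits, with adjusted p between 0.0577 and 0.113 in them (limma). Among these were the fits without shALKBH5 replicate 2 or 3 and without shCtrl replicate 1 or 3. After median-ratio rescaling its log2 fold change was -0.20 (adjusted p = 0.0117, limma). Its partners in the trimer, RPA1 and RPA3, had log2 fold changes of -0.77 and -0.63.

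Nucleotide supply had the lowest median of all roles, -1.57 over 5 genes, all lower. TK1, thymidine kinase of the salvage pathway, was at 20.1, 20.1 and 19.8 FPKM in shALKBH5 and at 75.7, 66.5 and 68.3 FPKM in shCtrl cells, 3.51-fold lower (log2 fold change -1.80, standard error 0.0539, adjusted p = 6.26e-07, limma). TYMS, which makes thymidylate, went from 62.6 ± 0.957 to 21.0 ± 0.369 FPKM (SD, n = 3, log2 fold change -1.57). DUT, the dUTPase, had a log2 fold change of -1.04.

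Ribonucleotide reductase, which makes deoxynucleotides from ribonucleotides, has a large subunit RRM1 and a small subunit RRM2. RRM2 was at 7.09, 7.13 and 6.75 FPKM in shALKBH5 and at 22.5, 23.3 and 22.9 FPKM in shCtrl cells, while RRM1, the gene with the smallest fall in this role, was at 12.6, 12.5 and 10.6 FPKM against 20.0, 26.3 and 23.6 FPKM. The RNA of the small subunit was thus near that of the large in shCtrl libraries, with RRM2 to RRM1 ratios of 0.887 to 1.12, and below it in shALKBH5 libraries, with ratios of 0.564 to 0.636. The log2 ratio differed by -0.74 (two-sided exact permutation p = 0.1).

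The 4 genes of fork protection and licensing control all fell. CLSPN, the adaptor that passes the stalled-fork signal to CHEK1, was at 0.315, 0.277 and 0.330 FPKM in shALKBH5 and at 1.26, 1.54 and 1.16 FPKM in shCtrl cells (log2 fold change -1.80, standard error 0.161, adjusted p = 6.25e-05, limma). Being low, it was 4.31-fold lower by the ratio of means but had a log2 fold change of only -0.83 with a pseudocount of 1. TIPIN, which partners TIMELESS at the fork, fell least, at 2.42, 2.57 and 2.38 FPKM against 3.53, 3.62 and 3.92 FPKM (log2 fold change -0.57, standard error 0.0731, adjusted p = 0.000395, limma). TIMELESS itself had a log2 fold change of -1.36 and DTL, the ubiquitin ligase adaptor that removes CDT1 in S phase, one of -1.64.

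The 5 genes that copy chromatin along with DNA all fell, with a median log2 fold change of -1.34. UHRF1, which brings the maintenance methyltransferase to freshly copied DNA, was at 6.30, 6.06 and 6.35 FPKM in shALKBH5 and at 26.8, 24.4 and 25.7 FPKM in shCtrl cells, 4.11-fold lower (log2 fold change -2.02, standard error 0.0515, adjusted p = 3.18e-07, limma). DNMT1, that methyltransferase, went from 33.0 ± 0.495 to 18.7 ± 0.137 FPKM (SD, n = 3, log2 fold change -0.81). SLBP, which binds the ends of histone mRNAs, fell least, at 16.6, 16.4 and 16.0 FPKM against 23.1, 25.5 and 24.7 FPKM (log2 fold change -0.57, standard error 0.0489, adjusted p = 4.92e-05, limma). CHAF1A and CHAF1B, of the histone chaperone CAF-1, had log2 fold changes of -1.42 and -1.34.

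Of the cyclins E, which drive CDK2 at the start of S phase, CCNE1 was at 4.66, 4.55 and 4.44 FPKM in shALKBH5 and at 9.76, 9.26 and 9.58 FPKM in shCtrl cells (log2 fold change -1.05, standard error 0.0517, adjusted p = 3.89e-06, limma). CCNE2 was at 0.155, 0.124 and 0.0824 FPKM against 0.585, 0.663 and 0.528 FPKM, a 4.91-fold ratio of means at levels where the pseudocount weighs. With no filter its log2 fold change was -1.66 (adjusted p = 0.00199, limma). The log2 ratio of CCNE2 to CCNE1 differed by -0.61 (two-sided exact permutation p = 0.1), by -1.27 with no pseudocount and by 0.42, in the other direction, with a pseudocount of 1. INTS8 on the opposite strand overlaps CCNE2 by 1977 bp and was at 2.69 and 1.59 FPKM.

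A second list held 54 other genes of replication and its control, of which 48 were tested. Of these 32 were lower, 6 higher and 10 without a call, a share of 66.7% lower, and the median log2 fold change was -0.55. E2F2, a transcription factor of the S-phase program, fell most, at 0.491, 0.332 and 0.350 FPKM in shALKBH5 against 2.06, 2.07 and 2.01 FPKM in shCtrl cells. TOP2A, the topoisomerase that unlinks copied DNA, fell next, at 1.66, 1.10 and 1.31 FPKM against 6.40, 7.18 and 4.46 FPKM. Their log2 fold changes were -2.14 (adjusted p = 2.00e-05, limma) and -2.06 (adjusted p = 9.75e-05, limma).

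The largest rises in that second list were in core subunits of the origin recognition complex. ORC5 was at 4.00, 4.28 and 3.73 FPKM in shALKBH5 and at 1.95, 3.24 and 2.48 FPKM in shCtrl cells (log2 fold change 0.65, adjusted p = 0.0112, limma). ORC3 was at 1.65, 1.83 and 1.85 FPKM against 1.01, 1.49 and 1.03 FPKM (log2 fold change 0.57, adjusted p = 0.0147, limma). In both genes shCtrl replicate 2 was the highest of its group, and the groups did not overlap. No gene of this list was at 0 in all libraries.

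Mitosis genes fell as a group too. All 25 tested of 26 listed were lower, with a median log2 fold change of -1.79, against -1.19 for the replication genes. ECT2, which directs the cleavage furrow, was at 0.299, 0.105 and 0.248 FPKM in shALKBH5 and at 1.76, 1.82 and 1.31 FPKM in shCtrl cells (log2 fold change -2.49, adjusted p = 0.000189, limma). KIF20A, a kinesin of cytokinesis, was at 7.37, 8.13 and 7.36 FPKM against 37.0, 40.1 and 38.5 FPKM (log2 fold change -2.32, adjusted p = 3.15e-07, limma). The difference between the lists was not tested.

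**Figure D4:**
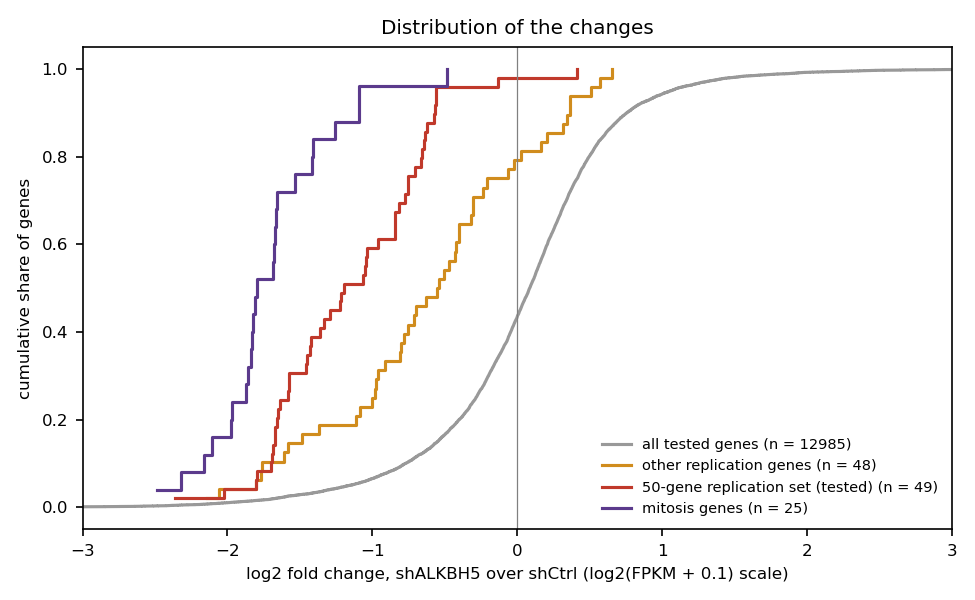
Cumulative share of genes (y axis) by log2 fold change of shALKBH5 over shCtrl (x axis, log2(FPKM + 0.1) scale) for the tested genes of the 50-gene set, the other replication genes, the mitosis genes and all 12985 tested genes. The curve of the 49 tested replication genes, with a median of -1.19, lies between those of the mitosis genes (-1.79) and the other replication genes (-0.55), and all genes have a median of 0.09.

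The libraries of a group were alike, with correlations across genes of 0.981 to 0.984 within groups and 0.929 to 0.934 between them. Melanocyte lineage markers summed to 262 to 267 FPKM in shALKBH5 and 214 to 225 FPKM in shCtrl libraries, with 7 of 8 listed. SOX10 was near 180 FPKM in both groups, S100B rose from 32.9 ± 1.35 to 82.1 ± 3.03 FPKM (SD, n = 3), and the pigment genes PMEL, TYRP1, DCT and TYR were below 0.7 FPKM. Keratinocyte markers (3 of 6 listed) summed to 10.7 to 11.5 and 8.90 to 9.53 FPKM, mostly KRT10, and fibroblast markers (6 of 6) to 3.20 to 4.35 and 2.23 to 2.37 FPKM, mostly LUM. Within these lists KRT14, PDGFRA and COL1A2 were lower in every shALKBH5 library, at means of 0.369, 0.242 and 0.0158 FPKM against 0.961, 0.422 and 0.0499 FPKM. Leukocyte markers (2 of 5 listed) summed to 4.80 to 5.34 and 0.829 to 1.19 FPKM, mostly LYZ. The part of these markers in the replication results was not tested.

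Other genes overlap the span of 25 of the 50 genes, and for 15 of them such a gene was at 0.1 times the level or more. Whether the authors' counting used strand is not given in the sources used here, so reads of such partners could be shared. Pseudogenes named after 3 of the genes stood in 5 rows of the table and reached at most 0.208 FPKM.

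Peaks of m6A were described next. Each group has a single peak list, and values of the separate libraries were not given with it, so peak values have no replicate check. Peaks were listed in 44 of the 50 genes in shALKBH5 (85 peaks) and 44 in shCtrl cells (93 peaks), and 43 genes had a peak in both lists. Among the 49 tested genes 42 had peaks in both lists, near the share of all tested genes with peaks in both (82.6%).

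No peak was listed in either group for CDC45, RFC5, RPA2, TK1 and TYMS. These hold the gene with the largest fall, CDC45, and the gene with the smallest change, RPA2, and their median log2 fold change was -1.57. PRIM2 had a peak in the shALKBH5 list only, with a 7.35-fold enrichment of precipitated over input RNA and an FDR that was not under 0.05. RFC3 had one in the shCtrl list only, in the 3′UTR and with a 20.4-fold enrichment.

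The replication genes' peaks lay mainly at the ends of transcripts. In the 3′UTR lay 50.6% of the shALKBH5 peaks (95% Wilson interval 40.2% to 61.0%, counting error only) and 49.5% of the shCtrl peaks (39.5% to 59.4%), against 45.5% and 46.2% of all peaks. All peaks of the replication genes lay in UTRs, other exons or introns, but 80.2% and 81.3% of all peaks did, the rest being mostly in non-coding transcripts. Among the peaks in these 4 classes 56.7% and 56.8% were in the 3′UTR. In the 5′UTR lay 27.1% (18.8% to 37.3%) and 30.1% (21.7% to 40.1%), against 20.7% and 20.9% in the 4 classes. Other exons held 20.0% and 16.1%, against 16.6% and 16.5%. Peaks of some genes span introns, and 8 and 9 peaks were longer than 10 kb.

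Most peaks recurred between the lists. Counting any shared base on 1 strand, 88.2% (79.7% to 93.5%) of the shALKBH5 peaks met a peak of the shCtrl list, and 76.3% (66.8% to 83.8%) of the shCtrl peaks met a peak of the shALKBH5 list. Over all peaks these shares were 78.1% and 81.3%. At least 1 3′UTR peak stood in each list in 31 of the 50 genes, whether or not the same peak (those of MCM4 lie apart). The median log2 fold change was -1.34 for these 31 and -1.04 for the other 19.

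Fold enrichments often took the same value. The commonest, 7.35 in the shALKBH5 and 7.66 in the shCtrl list, stood at 2352 of 46039 and 2173 of 44304 peaks, among them those of PRIM2 and MCM10, and 15.3 stood in 2 of the replication genes. Such values should not be read as exact differences or ranks.

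The highest enrichment was in MCM7, in a 5′UTR peak at chr7:100100119-100100864 (minus strand, deposited coordinates), 201-fold in shALKBH5 and 199-fold in shCtrl cells. UHRF1 followed, with 29.6-fold at chr19:4961018-4961975 (plus strand, 3′UTR) in shALKBH5 and 8.63-fold in the matching shCtrl peak. The other genes with high values were RFC3 (20.4-fold, above), POLD3 (17.6-fold, 5′UTR, shALKBH5 list), and PRIM1 and GINS3, both at the recurring 15.3-fold in the shCtrl list and not ranked for that reason. All 4456 bp of that POLD3 peak lie within AP001372 on the same strand, and the deposited span of POLD3 is 2.28 times its RefSeq span. Of the 387 bp of the PRIM1 peak, 333 bp lie within NACA on the same strand. The GINS3 peak spans 97495 bp, nearly all of it outside the RefSeq span.

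Where a peak of each list covered at least 50% of the other and was its best match, the enrichments were set side by side. This gave 54 pairs in 37 genes, of which 26 had a higher and 28 a lower fold enrichment in shALKBH5 cells. The median log2 ratio of the enrichments was -0.03, against -0.05 over 23374 pairs of all genes. A higher enrichment in shALKBH5 cells was thus found in 48.1% of the pairs of the replication genes and 44.9% of all pairs. Keeping only pairs whose peaks were enriched 2-fold or more at an FDR up to 0.01 in both lists left 21 of the 26 higher and 16 of the 28 lower pairs. That choice uses the compared values themselves, so nothing is read from the share among the pairs left.

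**Figure D5:**
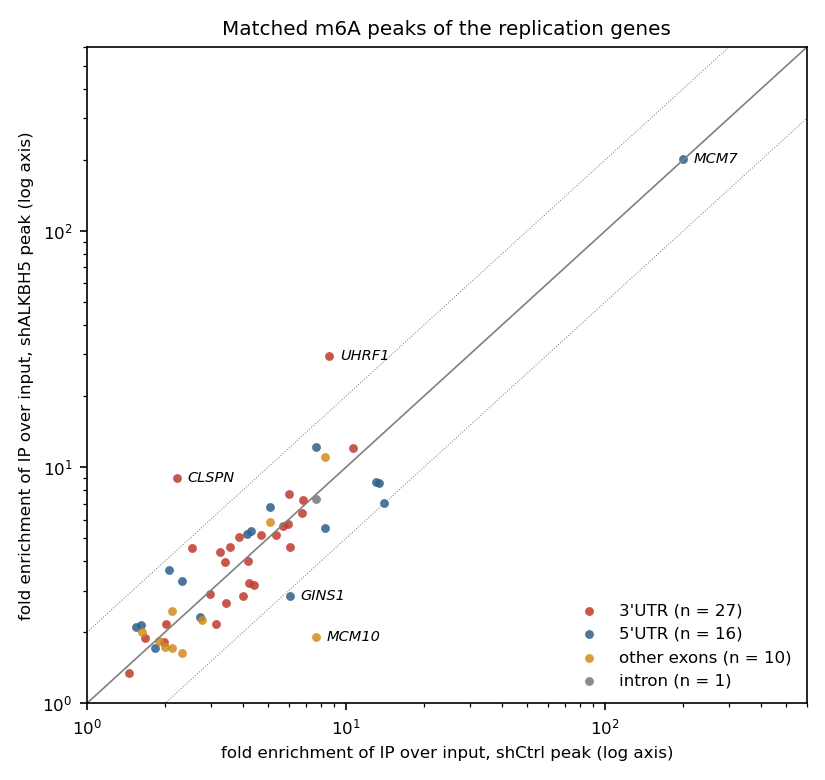
Fold enrichment of m6A-precipitated over input RNA in matched peaks of the replication genes, shCtrl (x) against shALKBH5 (y), both on log axes; each point is a pair of matched peaks, coloured by region, with the line of equality and dotted lines at a 2-fold difference. The 54 pairs scatter on both sides of the line, and 4 pairs lie beyond the dotted lines.

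Beyond a 2-fold difference lay 4 of the 54 pairs (7.41%), against 14.2% of all pairs. The 4 pairs were chosen after their values were seen. UHRF1 in the 3′UTR (log2 ratio 1.78) and CLSPN in the 3′UTR (8.98-fold against 2.23-fold, log2 ratio 2.01) were higher in shALKBH5 cells. GINS1 in the 5′UTR (2.84-fold against 6.10-fold, log2 ratio -1.10) and MCM10 in an exon (1.91-fold against the recurring 7.66-fold, so that its difference is not exact) were lower. The p-value of the peak was weaker in shALKBH5 cells in 48 of the 54 pairs (88.9%), against 51.9% of all pairs. Such a p-value also depends on the number of reads, and RNA of the paired genes was lower in shALKBH5 cells for all but GINS3. The p-value was stronger in shALKBH5 cells in both GINS3 pairs. It was also stronger there in a pair each of CLSPN, RFC2, RPA3 and TIPIN, genes whose RNA fell. The part of RNA level in the share of 88.9% was not tested. The authors' table of differential peaks lists 23 peaks in 19 of the 50 genes, out of 6513. Of the tested replication genes 36.7% had such a peak and of all tested genes 33.2%, and 69.6% of these peaks lay in the 3′UTR, against 64.7% of all differential peaks in the same 4 classes.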

How the data were processed

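Expression was taken from the table the authors deposited as FPKM per input library. The aligner, the counter and the annotation are not given in the sources used here. The submitters' processing notes name only the mouse build mm10, while the genes are human, and the deposited coordinates of all 50 genes overlapped their RefSeq genes on GRCh38.p14 (median overlap 99.7%). No read counts were used, and low FPKM values showed no steps, so the depth is unknown and 3 libraries a group limit the precision. The authors deposited for each peak a fold enrichment ratio of IP over input, and scores (log10 p and log10 FDR), in 1 list per group, whose pooling is not stated. Peak positions are the authors' deposited start and end, changed to count from 1.

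The authors' columns of comparisons (fold changes with p and q values of expression, and fold changes with p and FDR of differential peaks) were not used, and only the positions of the differential peaks were.

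The test was two-sided, by lmFit and eBayes with a trend (limma 3.58.1, R 4.3.3), on log2(FPKM + 0.1) of the 12985 genes whose mean reached 0.5 FPKM, with p-values adjusted by Benjamini-Hochberg over them. It was checked on simulated data, but these had independent spread between libraries and far fewer changed genes than were called here. Ratios within libraries were compared by exact permutation tests. Other steps ran in Python 3.11.15 with pandas 2.3.3, scipy 1.17.1, numpy 2.4.6 and, for plots, matplotlib 3.10.9. The 50 genes, the gene lists and the tests were chosen with earlier results of these data known. Values per library are given, by role, for the genes with the largest and the smallest change, for GINS3 and CCNE2, for genes of the 4 ratios, and for the extremes of the other lists. Peaks are named where a gene had none or a peak in 1 list only, and for the highest enrichments. PCNA, MCM7 and POLA2 per library, and the genes singled out beside these, were chosen after their values were seen. Alternatives were pseudocounts of 1 and 0.01 (for ratios, 1 and none), no filter or a filter at 1 FPKM, rescaling by median ratios, eBayes without a trend, the replicate number as a block, leaving out each library, only peaks enriched 2-fold or more at an FDR up to 0.01, and a reciprocal overlap of 50%.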

Additional observations from a re-analysis of the deposited data

How the results depend on the processing

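Of 635 values of the replication genes under 13 alternative fits, 628 kept their direction and their side of the threshold, 7 lost the call and 0 reversed. In 4 of these fits (another filter, no trend, the block) the fold change of a gene is fixed, so that only a call could change. RPA2 lost it in 6 fits and GINS3 in 1. The median log2 fold change of the tested genes, -1.19, was -0.92 with a pseudocount of 1, -1.07 with a filter at 1 FPKM, -1.27 after rescaling, and -1.19 to -1.07 when each library was left out in turn. Rescaling changed the calls over all genes from 3408 lower and 4509 higher to 3903 and 3777. The log2 ratio of CCNE2 to CCNE1 reversed to 0.42 with a pseudocount of 1, which is large beside CCNE2. With a reciprocal overlap of 50%, 63.5% of shALKBH5 and 58.1% of shCtrl peaks of the genes recurred in the other list, against 51.6% and 53.7% of all peaks.

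With the replicate number as a block, which leaves the median of -1.19 as it is by construction, 48 genes were called with RPA2 lost (adjusted p = 0.0709, limma). Deviations of same-numbered libraries from their group means correlated at 0.02, -0.05 and 0.06 across genes, and those of differently numbered libraries at -0.06 to 0.04. These values showed no pairing by number, but they cannot tell whether same-numbered libraries were prepared together. The unknown depth, the lack of peak values per library and the 3 libraries a group limit what these data show. With 3 libraries a group, no test for outlying libraries was made.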

Other observations

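E2F1, an activator of S-phase genes, was at 2.68, 3.10 and 2.84 FPKM in shALKBH5 and at 10.7, 8.56 and 7.84 FPKM in shCtrl cells, and E2F8, a repressor of the same program, at 0.355, 0.316 and 0.413 FPKM against 1.51, 1.43 and 1.44 FPKM (log2 fold changes -1.61 and -1.76). E2F3 was at 5.62, 5.19 and 4.99 FPKM against 4.73, 5.58 and 5.18 FPKM, and these ranges overlapped. Of other control genes in the second list, some were lower, with log2 fold changes of -1.80 for CCNA2 (cyclin A2), -0.96 for the phosphatase CDC25A, -0.55 and -0.43 for the kinases CHEK1 and WEE1, and -0.40 for the repressor E2F7. CDC7 and its partner DBF4, TOPBP1 and ATRIP had no call, with log2 fold changes of -0.32, -0.06, -0.42 and 0.16. CDK2, the kinase that cyclin E drives, was higher, at 27.5, 28.2 and 27.6 FPKM against 22.9, 20.4 and 21.3 FPKM (log2 fold change 0.37, adjusted p = 0.000611, limma).

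RRM2B, the small subunit of ribonucleotide reductase known as a p53 target, was at 4.56, 3.76 and 4.06 FPKM against 2.95, 3.85 and 2.81 FPKM (log2 fold change 0.36, adjusted p = 0.0428, limma), and the groups overlapped. These genes were chosen after their values were seen. Across the 49 tested replication genes, the level in shCtrl cells and the log2 fold change had a Spearman correlation of -0.13, and across all tested genes of -0.17, both of which share the shCtrl values.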
